A study of Homo sapiens with 6 samples.

Results

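The 7 genes described here encode transcription factors that mark the prostate luminal lineage: FOXA1, HOXB13, GATA2, GRHL2, SPDEF, ELF3 and EHF. They were chosen by symbol, and all 7 were found among the 17354 distinct symbols of the deposited tables. RNA-seq had been run on C4-2B-ENZR cells, human prostate cancer cells that have become resistant to the antiandrogen drug enzalutamide. The groups were 3 libraries labelled siKIF15, titled as cells with knockdown of the kinesin gene KIF15, and 3 labelled NC, titled as control cells. The label siKIF15 reads as an siRNA against KIF15, and the titles do not state what the control cells received. All 6 libraries came from a single resistant line, and the labels name no separate cultures for the replicates. The p-values therefore cover the spread among libraries alone, part or all of which can be technical. Each value is the deposited signal of a gene, which appears to be a read count adjusted to a common library size, and sequencing depth is unknown.

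FOXA1 and GATA2 are pioneer factors, which bind closed chromatin and open it for other factors, and HOXB13 is a homeobox factor of the prostate that shares many binding sites with FOXA1. GRHL2, a grainyhead factor, maintains the genes of epithelial junctions. SPDEF, ELF3 and EHF belong to the epithelial branch of the ETS family, whose members bind DNA around a GGA core. SPDEF is known from secretory cells, ELF3 responds to inflammatory signals through NF-kappa B, and EHF is linked to epithelial differentiation. Together they hold the luminal program of prostate epithelium, which is why they are studied in resistance to hormone therapy.

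ELF3 was higher in the libraries labelled siKIF15, by 1.32-fold, and the other 6 factors did not pass the test. Tested with limma on log2(value + 1), a moderated linear model fitted over 16548 genes with Benjamini-Hochberg adjustment at 0.05, 1 of the 7 factors was called higher and 0 were called lower, where 9.66% and 8.33% of all genes tested were called in these directions and 18.0% in either. Where the higher group averaged 1000 or more, as it did for all 7 factors, these shares were 12.8% and 12.7%. At an unadjusted p under 0.05, limma had 3 factors higher, namely ELF3, SPDEF and GRHL2, and 0 lower. Among all 16548 genes tested, 5066 lay under this value in either direction. For the same 3 factors every siKIF15-labelled library lay above every NC library, and of all genes tested 18.3% had groups that did not overlap in that direction, 16.5% in the other and 34.8% in either. The median log2 change of the 7 factors was 0.08, beside 0 for all genes tested. Summed, the 7 values ranged from 150006 to 153404 in siKIF15-labelled libraries and from 146379 to 151613 in NC libraries. In bulk RNA, fewer cells of a type and less RNA per cell cannot be told apart.

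**Figure D1:**
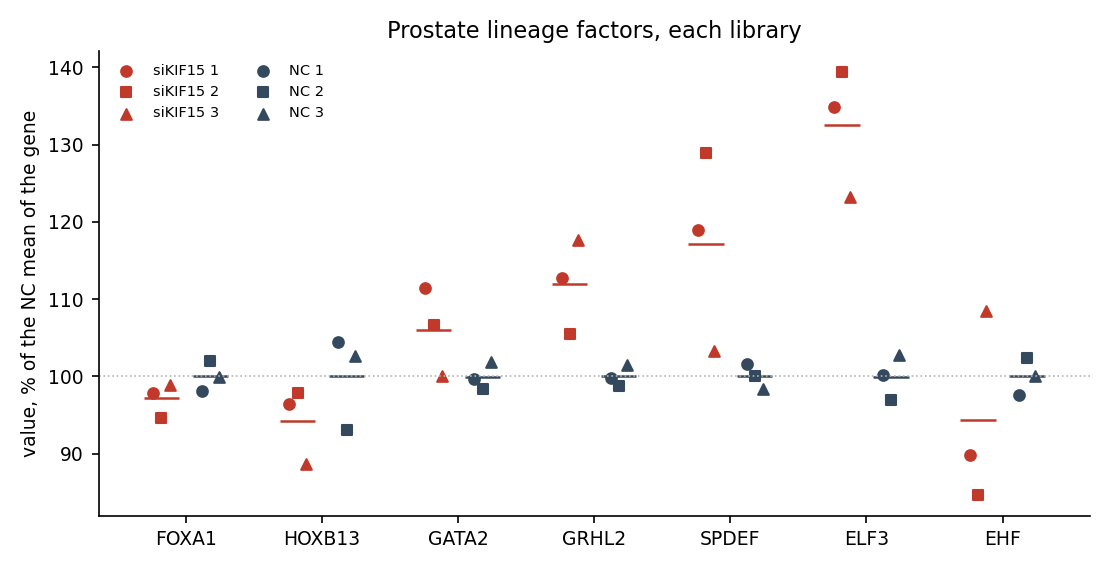
Value of each factor in each library as a percent of its NC mean, with siKIF15-labelled libraries in red left of NC libraries in blue, a marker shape for each replicate number and a line at each group mean. ELF3 lies between 123.2% and 139.4% in siKIF15-labelled libraries, above all NC libraries, while FOXA1, HOXB13, GATA2 and EHF overlap between the groups.

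The targeted transcript does not bear out the label. KIF15 stood at 295, 333 and 363 in the siKIF15-labelled libraries and at 366, 404 and 319 in the NC libraries. Its log2 change was -0.13 (95% interval -0.43 to 0.16, limma adjusted p = 0.57), and the groups overlapped, so each direction given here is that of the libraries labelled siKIF15. The libraries also differed in base composition: over 11290 genes, transcript GC content and the deviation of a library from the mean of its group had a Spearman correlation of 0.55, 0.52 and -0.75 in siKIF15 1, 2 and 3, and 0.17, -0.30 and 0.20 in NC 1, 2 and 3. For transcript length the same correlation was 0.04, -0.65 and 0.54 in siKIF15 1, 2 and 3, and -0.24, 0.06 and 0.16 in NC 1, 2 and 3. The genes are not independent replicates, and these values describe the libraries. Across the transcriptome 1599 genes were called higher and 1379 lower; scaling to equal totals turned this into 1205 and 1753, and correcting for GC content and length gave 1868 and 2989, so the balance of calls depends on the scaling.

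Markers of luminal epithelium were abundant and those of other cell types low. The luminal genes KRT8, KRT18, KLK3, KLK2, TMPRSS2 and ACPP (now named ACP3) summed to 165031 to 194410 in siKIF15-labelled libraries and to 150554 to 157070 in NC libraries. By limma ACPP, KLK2, KRT8 and KRT18 rose, TMPRSS2 fell (log2 change -0.21, adjusted p = 0.034) and KLK3 did not pass (0.09, adjusted p = 0.49). After the GC and length correction KRT18 lost its call (0.06, adjusted p = 0.32) and KLK3 was lower (-0.13, adjusted p = 0.016). The calls of KRT8, KRT18 and TMPRSS2 were lost without siKIF15 1 or NC 2, and those of KRT18 and TMPRSS2 also without NC 1 or NC 3. The summed levels of 7 fibroblast, 5 leukocyte and 4 endothelial markers stayed at or under 700, 59 and 414 in every library. TP63, the defining factor of basal cells, was listed at 0.0, 4.1 and 2.1 in siKIF15-labelled libraries and at 0.0, 2.3 and 0.0 in NC libraries. The 6 basal markers summed to 555 to 636 in siKIF15-labelled libraries, against 494 to 512 in NC libraries, and of these KRT14 and COL17A1 rose and DST fell. COL17A1 averaged 230 in siKIF15-labelled libraries and 11.7 in NC libraries (log2 change 4.24, limma adjusted p = 4.5e-08). It kept its call in all 6 fits without 1 library. Without siKIF15 1, KRT14 and DST did not pass, and the part of these markers in the results was not tested. Among 5 measured neuroendocrine markers no gene passed.

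On a scale of signal per kilobase of the longest principal GENCODE transcript, which allows levels of different genes to be compared, HOXB13 was the most abundant factor and ELF3 the least. HOXB13 averaged 12544 ± 656 per kb in siKIF15-labelled libraries and 13309 ± 807 per kb in NC libraries (SD, n = 3 each). GATA2 followed at 11137 ± 599 per kb in siKIF15-labelled libraries and 10503 ± 182 in NC libraries, EHF at 7777 ± 1029 in siKIF15-labelled libraries and 8247 ± 200 in NC libraries, and FOXA1 at 5576 ± 127 in siKIF15-labelled libraries and 5741 ± 111 in NC libraries. GRHL2 averaged 3522 ± 192 per kb in siKIF15-labelled libraries and 3146 ± 40 per kb in NC libraries, SPDEF 2818 ± 311 in siKIF15-labelled libraries and 2407 ± 38 in NC libraries, and ELF3 1207 ± 76 in siKIF15-labelled libraries and 911 ± 27 in NC libraries. No neighbours in this order overlapped within a group, the closest being HOXB13 and GATA2 in siKIF15-labelled libraries, with a lowest value of 11794 and a highest of 11699 per kb. The order depends on the transcript: with the shortest principal transcript, EHF and GATA2 stood above HOXB13 in both groups, and ELF3 averaged 2950 per kb in siKIF15-labelled libraries and 2227 per kb in NC libraries, with ranges that overlapped those of SPDEF in the siKIF15-labelled libraries.

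ELF3 (chromosome 1, ENSG00000163435) was the factor with the clearest difference. It stood at 6134, 6347 and 5607 in siKIF15 1, 2 and 3, against 4563, 4413 and 4680 in NC 1, 2 and 3. All 3 siKIF15-labelled libraries lay above all 3 NC libraries, with siKIF15 3 the lowest of its group. The log2 change was 0.40 ± 0.07 (SE; 95% interval of the fold 1.19 to 1.47; limma adjusted p = 9.7e-04). The call held in each of the 6 fits that left out 1 library, where the log2 change ranged from 0.37 to 0.46 (adjusted p from 5.4e-05 to 0.024). Set against EHF, its relative in the ETS family, the within-library ratio of signal was 0.263, 0.288 and 0.199 in siKIF15-labelled libraries and 0.18, 0.166 and 0.18 in NC libraries, a log2 difference of 0.50. An exact two-sided permutation test gave p = 0.1, the smallest that 3 against 3 libraries allow.

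The bases before the start of ELF3 and of EHF are shown because they belong to a pair of related ETS genes, of which ELF3 passed the test and EHF did not. Both runs are the 250 bases before the first listed RefSeq start on GRCh38.p14, on the plus strand. The run of ELF3 lies at chr1:202010337-202010586 and that of EHF at chr11:34624007-34624256. Capitals mark a match to the NF-kappa B letters, which are GGG, any pair of bases and TTTCC, on either strand.
ELF3: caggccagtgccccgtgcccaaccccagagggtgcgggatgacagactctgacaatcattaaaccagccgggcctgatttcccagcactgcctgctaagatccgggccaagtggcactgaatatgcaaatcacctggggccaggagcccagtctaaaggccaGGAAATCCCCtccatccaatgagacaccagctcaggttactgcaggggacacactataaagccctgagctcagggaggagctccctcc
EHF: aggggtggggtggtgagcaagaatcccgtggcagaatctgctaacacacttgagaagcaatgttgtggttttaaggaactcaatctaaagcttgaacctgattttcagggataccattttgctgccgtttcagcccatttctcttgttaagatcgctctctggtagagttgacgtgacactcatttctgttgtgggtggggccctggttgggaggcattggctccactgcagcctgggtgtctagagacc
The match in ELF3 begins 88 bases before the start, on the minus strand, and EHF held no such match in this window. Of 34788 distinct promoter windows of the same length, 1.7% held these letters. RefSeq promoter windows were found for 5 factors, namely FOXA1, GATA2, SPDEF, ELF3 and EHF. Only the first listed window of each factor was searched, and any other start was not. Among these 5, 0 held the ETS letters GGAAGT (19.5% of all windows), the interferon response letters, GAAA on both sides of any pair of bases (3.0%), the interferon gamma-activated letters TTCNNNGAA (6.6%), the GATA letters AGATAA (9.2%) or the grainyhead letters AACNGGTT (1.5%). The forkhead letters TGTTTNC, found in 15.5% of windows, matched once in FOXA1. The HOXB13 letters CNATAAA, found in 9.0%, matched once in ELF3, 35 bases before the start, where they overlap a TATA sequence. A match is a description of letters in this window.

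SPDEF (chromosome 6, ENSG00000124664) stood at 5428, 5880 and 4711 in siKIF15 1, 2 and 3, against 4633, 4565 and 4487 in NC 1, 2 and 3. The groups did not overlap, although siKIF15 3 lay close to the NC libraries. The log2 change of 0.22 ± 0.08 (SE) did not pass (limma adjusted p = 0.07; 95% interval of the fold 1.04 to 1.31). Without siKIF15 3 it was 0.31 and passed (adjusted p = 0.0013). EHF (chromosome 11, ENSG00000135373) stood at 23323, 22007 and 28165 in siKIF15-labelled libraries and at 25347, 26610 and 25977 in NC libraries. Here siKIF15 3 was the highest of all 6 libraries while siKIF15 1 and 2 were the lowest. The log2 change was -0.09 ± 0.08 (SE; adjusted p = 0.51; 95% interval of the fold 0.83 to 1.06), and without siKIF15 3 it was -0.20 and passed (adjusted p = 0.016).

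GRHL2 (chromosome 8, ENSG00000083307) stood at 18576, 17385 and 19390 in siKIF15 1, 2 and 3, against 16453, 16290 and 16707 in NC 1, 2 and 3. Every siKIF15-labelled library lay above the NC libraries. The log2 change of 0.16 ± 0.07 (SE) did not pass (limma adjusted p = 0.11; 95% interval of the fold 1.01 to 1.23), and without siKIF15 2 it was 0.20 and passed (adjusted p = 0.043).

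The pioneer factors FOXA1 and GATA2 and the homeobox factor HOXB13 did not pass. FOXA1 (chromosome 14, ENSG00000129514) stood at 16078, 15549 and 16245 in siKIF15-labelled libraries and at 16118, 16754 and 16418 in NC libraries. Its log2 change was -0.04 ± 0.06 (SE; limma adjusted p = 0.70), with a 95% interval of the fold from 0.88 to 1.07. HOXB13 (chromosome 17, ENSG00000159184) stood at 44472, 45112 and 40890 in siKIF15-labelled libraries and at 48152, 42946 and 47329 in NC libraries, where NC 2 lay among the siKIF15-labelled values. The log2 change was -0.08 ± 0.08 (adjusted p = 0.49; fold interval 0.84 to 1.05). GATA2 (chromosome 3, ENSG00000179348) stood at 39392, 37725 and 35375 in siKIF15-labelled libraries and at 35270, 34801 and 36015 in NC libraries. Its log2 change was 0.08 ± 0.07 (adjusted p = 0.46; fold interval 0.96 to 1.17), and siKIF15 3 lay within the NC values. The sign of GATA2 turned under quantile normalization (-0.08, adjusted p = 0.31) and under the GC and length correction (-0.04, adjusted p = 0.46).

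The spread of the 7 factors within the siKIF15-labelled group was ordered much as their GC content. Dividing siKIF15 3 by the mean of siKIF15 1 and 2 gave 1.24 for EHF, whose transcript has 42.3% GC, 1.08 for GRHL2 (49.8%) and 1.03 for FOXA1 (51.3%). The same ratio was 0.90 for ELF3 (56.0%), 0.91 for HOXB13 (57.3%), 0.92 for GATA2 (59.7%) and 0.83 for SPDEF (64.6%). The coefficient of variation of EHF was 13.2% in siKIF15-labelled libraries and 2.4% in NC libraries, and that of SPDEF 11.0% in siKIF15-labelled libraries and 1.6% in NC libraries. FOXA1, near the middle of the GC range, varied by 2.3% in siKIF15-labelled libraries and 1.9% in NC libraries. The part of transcript length in this spread was not tested.

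**Figure D2:**
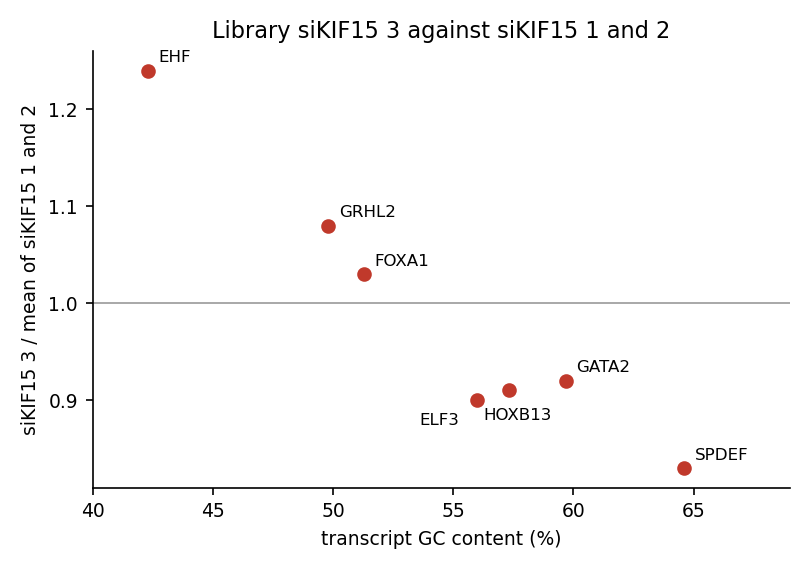
Ratio of the library siKIF15 3 to the mean of siKIF15 1 and 2 for each factor (vertical axis) against the GC content of its longest transcript in percent (horizontal axis), with the line at a ratio of 1. EHF, with 42.3% GC, stands at 1.24, and SPDEF, with 64.6%, at 0.83.

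Each library was therefore also corrected for GC content and transcript length. After this correction 4 factors passed: ELF3 and GRHL2 were higher and HOXB13 and FOXA1 lower. Among all 16548 genes tested, the correction gave 1868 higher and 2989 lower, with a median log2 change of -0.05. HOXB13 had corrected values of 41496, 42379 and 41072 in siKIF15-labelled libraries and of 49712, 46075 and 48532 in NC libraries, a log2 change of -0.21 ± 0.04 (SE; limma adjusted p = 0.001). FOXA1 had 15413, 14811 and 16176 in siKIF15-labelled libraries and 16587, 17317 and 16977 in NC libraries, a log2 change of -0.13 ± 0.04 (adjusted p = 0.021). GRHL2 kept its log2 change of 0.16 with a smaller error (SE 0.04, adjusted p = 0.0037), and ELF3 had 0.34 ± 0.05 (adjusted p = 9.6e-05). SPDEF did not pass after the correction either: its corrected values were 5022, 5058 and 5040 in siKIF15-labelled libraries and 4788, 4917 and 4735 in NC libraries, and its log2 change was 0.07 ± 0.04 (adjusted p = 0.24). The 3 siKIF15-labelled libraries of SPDEF, spread widely before, lay close together after the correction. EHF had -0.08 (adjusted p = 0.29). The correction also removes any difference between the groups that follows GC content or length.

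**Figure D3:**
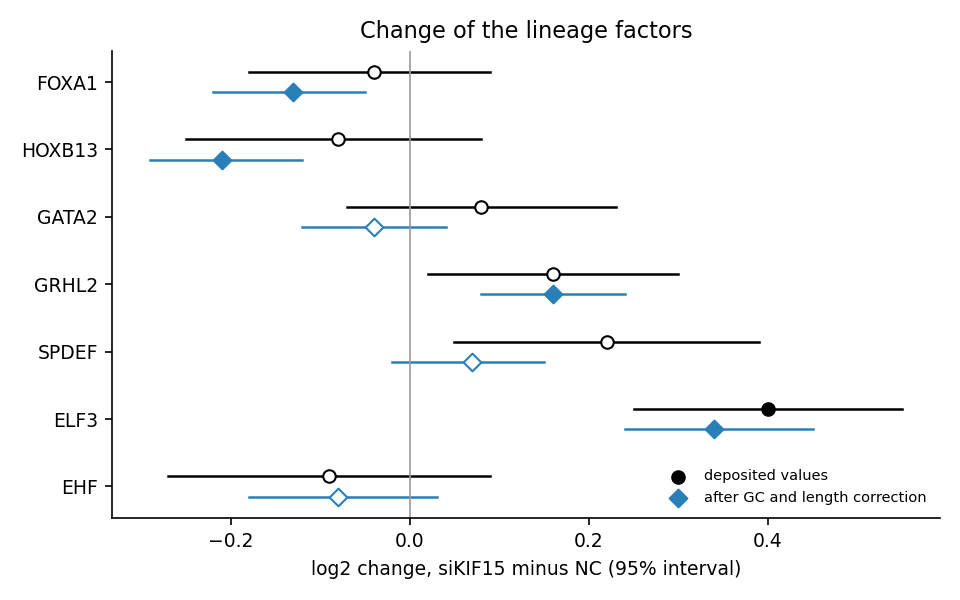
Log2 change of each factor, siKIF15 minus NC, with its 95% interval from limma, on the deposited values (black circles) and once corrected for GC content and length (blue diamonds). Filled symbols passed an adjusted p of 0.05. ELF3 passed in both (0.40 and 0.34), and FOXA1, HOXB13 and GRHL2 passed after the correction.

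While HOXB13 did not pass, 7 other genes of its cluster rose. HOX genes set positional identity along the body axis, and the HOXB genes lie in a cluster on chromosome 17 with HOXB13 at its far end. Of 11 measured HOX genes, which were the HOXB genes and the paralogs of HOXB13, 7 rose and 1, HOXC13, fell. Across all genes tested, 9.66% rose and 8.33% fell. The median log2 change of the HOX genes was 0.39 beside 0 for all genes tested. HOXB9 stood at 2113, 2177 and 1997 in siKIF15-labelled libraries and at 1758, 1584 and 1756 in NC libraries (log2 change 0.30 ± 0.08 SE, limma adjusted p = 0.016). HOXB7 had 755, 844 and 699 in siKIF15-labelled libraries, against 617, 556 and 571 in NC libraries (0.39, adjusted p = 0.02). HOXB3 averaged 476 in siKIF15-labelled libraries and 359 in NC libraries (0.40, adjusted p = 0.03). HOXB4, at a low level, had 61.5, 71.0 and 73.2 in siKIF15-labelled libraries and 6.5, 6.9 and 19.2 in NC libraries (2.71, adjusted p = 1.9e-04). HOXC13, a paralog of HOXB13, had 2536, 2566 and 2173 in siKIF15-labelled libraries, against 3036, 2781 and 2866 in NC libraries (-0.26, adjusted p = 0.04).

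Within each library, HOXB13 was also set against the rest of its cluster. The ratio of HOXB13 to the sum of HOXB2 to HOXB9 was 9.49, 9.09 and 9.33 in siKIF15-labelled libraries and 12.9, 12 and 12.7 in NC libraries, with no overlap and a log2 difference of -0.43 (exact two-sided permutation p = 0.1, the smallest possible here). The cluster was chosen as a comparison with these data known, antisense genes lie within it, and the strand of the libraries is not stated. The count of HOX genes that rose was 1, 2 and 5 without siKIF15 1, 2 or 3, and 2, 1 and 1 without NC 1, 2 or 3. It was 3 with libraries scaled to equal totals. After the GC and length correction it was 4, of which HOXB3, HOXB4 and HOXB9 lie in the cluster and HOXA13 does not (0.47, adjusted p = 0.014; 0.41 and 0.075 before the correction). HOXB7 then had 0.18 (adjusted p = 0.11), and HOXB2, HOXB6 and HOXB8 also lost their calls (adjusted p = 0.058, 0.23 and 0.087). HOXB4 kept its call in all 6 fits without 1 library. HOXB3, HOXB7 and HOXB9 lost theirs without siKIF15 1, NC 2 or NC 3. HOXB2 and HOXB8 passed in 0 of the 6 fits, and HOXB6 in 1, that without siKIF15 3. HOXB2 lay near the floor, averaging 8.3 in siKIF15-labelled libraries and 1.2 in NC libraries. HOXC13 lost its call without siKIF15 1 or any 1 of the NC libraries.

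**Figure D4:**
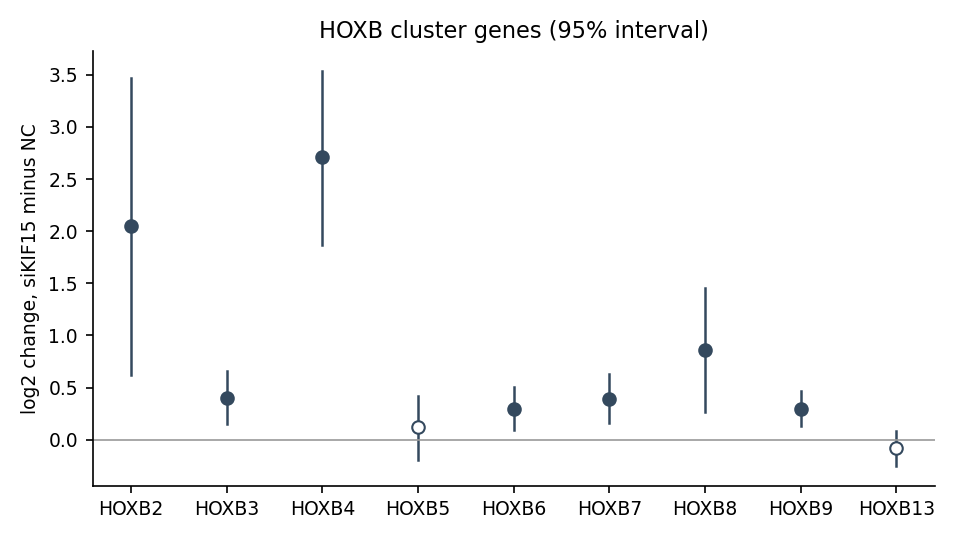
Log2 change, siKIF15 minus NC, of the measured HOXB genes with their 95% intervals from limma. Filled points passed an adjusted p of 0.05. HOXB2, HOXB3, HOXB4, HOXB6, HOXB7, HOXB8 and HOXB9 lie above 0, and HOXB13 at -0.08 does not differ from it by the test.

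Among 22 measured relatives in the ETS family 5 rose and 1 fell (median log2 change 0.03), beside 9.66% and 8.33% of all genes tested. ETV7, known as an interferon-induced repressor, stood at 242, 311 and 302 in siKIF15-labelled libraries and at 65.3, 41.2 and 65.5 in NC libraries (log2 change 2.32 ± 0.22 SE, limma adjusted p = 2.0e-06). FLI1, a factor of blood and vessel cells, was listed at 32.6, 24.0 and 15.6 in siKIF15-labelled libraries and at 0.0 in all NC libraries (adjusted p = 4.5e-05). ETS2, a target of growth factor signalling, had 761, 825 and 780 in siKIF15-labelled libraries, against 589, 558 and 547 in NC libraries (0.48, adjusted p = 0.0037). ETV3 rose by 0.30 (adjusted p = 0.024). The fall was that of ELF5, the gene next to EHF on chromosome 11: it stood at 3087, 3176 and 3253 in siKIF15-labelled libraries and at 3728, 3646 and 3833 in NC libraries (-0.24 ± 0.07, adjusted p = 0.026). The calls of ETV3 and ELF5 were lost without siKIF15 1 or any 1 NC library, while ETV7, FLI1 and ETS2 kept theirs in all 6 fits without 1 library. Without siKIF15 3, ETS relatives lower by the test numbered 3, and without siKIF15 1 those higher numbered 3, as they did without any 1 NC library.

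The paralogs of FOXA1, GATA2 and GRHL2 did not pass. FOXA3 was listed at 5.6, 0.0 and 0.0 in siKIF15-labelled libraries and at 1.6, 4.8 and 1.9 in NC libraries. GATA6 had 690, 729 and 682 in siKIF15-labelled libraries, against 813, 883 and 688 in NC libraries (log2 change -0.17, limma adjusted p = 0.31), and passed after the GC and length correction (-0.29, adjusted p = 0.039). GRHL1 had 808, 701 and 918 in siKIF15-labelled libraries and 837, 877 and 774 in NC libraries (-0.04, adjusted p = 0.83).

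Of 23 other measured factors linked to prostate or epithelial identity, 1 rose and 2 fell (median -0.08), beside 9.66% and 8.33% of all genes. SOX9, a factor of progenitor cells, had 966, 955 and 992 in siKIF15-labelled libraries, against 683, 793 and 714 in NC libraries (log2 change 0.41, limma adjusted p = 0.008). NFIX, a nuclear factor I protein, a family that binds FOXA1, had 52237, 40924 and 49054 in siKIF15-labelled libraries and 57654, 55308 and 61600 in NC libraries (-0.30, adjusted p = 0.03). KLF5, a Kruppel-like epithelial factor, had 329, 334 and 447 in siKIF15-labelled libraries, against 474, 542 and 488 in NC libraries (-0.45, adjusted p = 0.035). All 3 calls were lost without siKIF15 1 or NC 1, and those of NFIX and KLF5 also without siKIF15 2, NC 2 or NC 3. Without siKIF15 3 the counts were 2 higher and 4 lower.

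Of 23 genes of epithelial junctions and their regulation, many of them known targets of GRHL2 and of the epithelial ETS factors, 11 rose and 0 fell. Their median log2 change was 0.24, and they summed to 349295 to 398983 in siKIF15-labelled libraries and to 295462 to 300258 in NC libraries. Across all genes tested, 9.66% rose and 8.33% fell. CLDN4, a tight junction claudin and a known GRHL2 target, stood at 60397, 64435 and 52941 in siKIF15-labelled libraries, against 34102, 33229 and 33008 in NC libraries (0.82, limma adjusted p = 3.0e-06). CLDN7 rose by 0.53 (adjusted p = 1.7e-04) and ST14, the membrane protease matriptase, by 0.38 (adjusted p = 0.0036). OCLN, the occludin gene, had 2745, 2585 and 2945 in siKIF15-labelled libraries, against 2083, 2263 and 2075 in NC libraries (adjusted p = 0.0046). CDH1, the E-cadherin gene and a GRHL2 target, rose by 0.23, with 50357, 45435 and 51534 in siKIF15-labelled libraries and 41263, 42756 and 41134 in NC libraries (adjusted p = 0.039). ESRP1, a splicing factor of epithelia, had 3530, 3111 and 3798 in siKIF15-labelled libraries, against 3741, 3845 and 3940 in NC libraries and did not pass (-0.15, adjusted p = 0.23).

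The number of junction genes that rose was 3, 8 and 15 without siKIF15 1, 2 or 3 and 5 without NC 1, NC 2 or NC 3 alike. CLDN4, CLDN7 and OCLN kept their calls in all 6 of these fits, ST14 lost its call without siKIF15 1, and CDH1 lost its call without siKIF15 1 or any 1 NC library. After the GC and length correction 8 of the 23 genes were higher and 5 lower. Of all 16548 genes tested, 1868 were higher and 2989 lower on that scale. The lower junction genes were ESRP2, RAB25, PRSS8, LLGL2 and AP1M2. Of 5 measured repressors of epithelial genes, SNAI1 fell, at 53.3, 24.3 and 43.3 in siKIF15-labelled libraries and 86.8, 67.3 and 69.1 in NC libraries (log2 change -0.93, limma adjusted p = 0.044). Its call held without siKIF15 3 and was lost without any other single library. ZEB1, which GRHL2 is known to repress, had 125, 109 and 130 in siKIF15-labelled libraries and 122, 105 and 88.8 in NC libraries (adjusted p = 0.53).

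**Figure D5:**
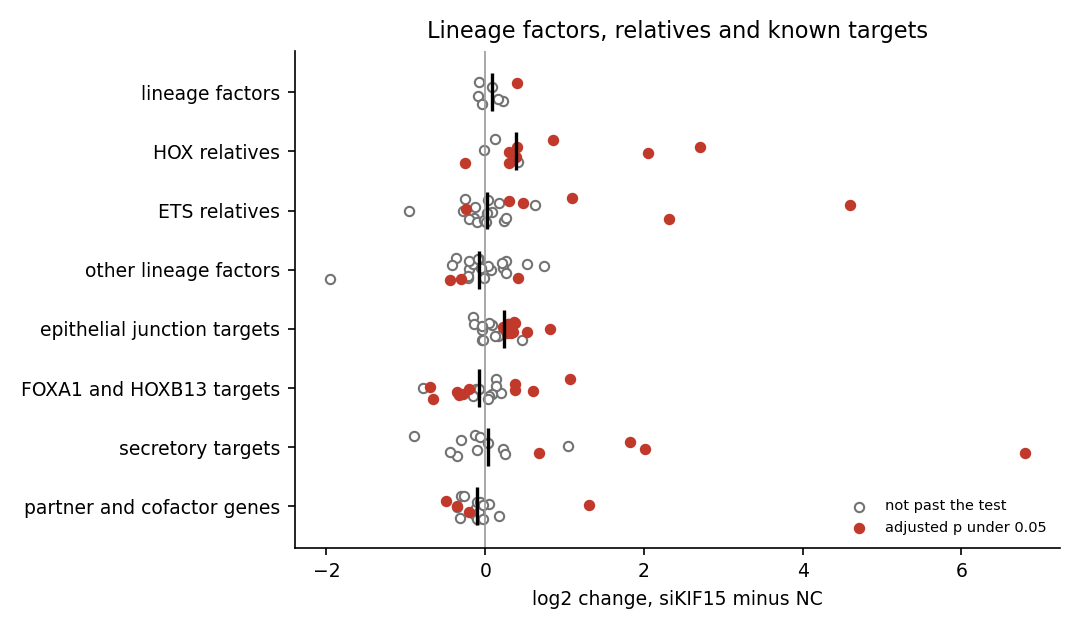
Log2 change, siKIF15 minus NC, of the 7 factors and of the genes of 7 lists, 1 point per gene, with filled points past an adjusted p of 0.05 and a black line at the median of each list. The junction genes have a median of 0.24 and the lineage factors a median of 0.08.

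Genes chosen as joint targets of the androgen receptor, FOXA1 and HOXB13 moved in both directions: of 21 measured, 4 rose and 6 fell. These directions held 9.66% and 8.33% of all genes tested. Control of the listed genes by FOXA1 or HOXB13 in these cells was not tested. The median log2 change of the target genes was -0.08. ACPP, the prostatic acid phosphatase gene, had 2095, 2020 and 2239 in siKIF15-labelled libraries, against 991, 1001 and 1035 in NC libraries (1.07, limma adjusted p = 1.7e-07). KLK2, a kallikrein protease, had 6577, 7347 and 6371 in siKIF15-labelled libraries, against 4484, 4191 and 4742 in NC libraries (0.60, adjusted p = 5.4e-05). ABCC4, an efflux transporter, had 1676, 1492 and 1924 in siKIF15-labelled libraries and 2666, 2741 and 2574 in NC libraries (-0.66, adjusted p = 1.3e-04). C1orf116, a hormone-regulated gene, rose by 0.37 (adjusted p = 0.0024). These 4 genes kept their calls in all 6 fits without 1 library. The counts of the list without siKIF15 1, 2 or 3 were 3, 3 and 4 higher and 1, 3 and 7 lower, and without NC 1, 2 or 3 they were 4, 3 and 3 higher and 3, 1 and 1 lower.

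Genes of secretory epithelium, among them targets of SPDEF, gave 4 rises and 0 falls among 15 measured (median 0.03). Rises and falls made up 9.66% and 8.33% of all genes tested. TFF1, a trefoil peptide, was listed at 220, 165 and 109 in siKIF15-labelled libraries and at 1.8, 0.0 and 0.0 in NC libraries (limma adjusted p = 5.6e-08). AGR2, a protein disulfide isomerase of secretory cells, had 253, 328 and 350 in siKIF15-labelled libraries, against 182, 217 and 176 in NC libraries (log2 change 0.68, adjusted p = 0.0089). MUC13, a membrane mucin, averaged 67.1 in siKIF15-labelled libraries and 16.3 in NC libraries (adjusted p = 5.9e-04), and ERN2, a stress sensor of secretory cells, 13.4 in siKIF15-labelled libraries and 3.0 in NC libraries (adjusted p = 0.017). ERN2 lost its call without siKIF15 1 or NC 2. Of 8 measured inflammatory genes known as ELF3 targets in other settings, 4 rose: LCN2, CXCL8, CCL20 and IL6. CXCL8, a neutrophil chemokine, had 92.1, 84.7 and 105 in siKIF15-labelled libraries and 13.1, 37.8 and 16.9 in NC libraries (2.14, adjusted p = 5.1e-04). LCN2, an iron-trapping lipocalin, had 53.8, 62.5 and 38.3 in siKIF15-labelled libraries, against 10.6, 6.3 and 0.0 in NC libraries (adjusted p = 0.002), and IL6 was listed at 3.5, 6.2 and 3.1 in siKIF15-labelled libraries and at 0.0 in all NC libraries. The inflammatory rises numbered 1, 2 and 3 without siKIF15 1, 2 or 3 and 2, 2 and 3 without NC 1, 2 or 3, and CXCL8 kept its call in all 6. LCN2 lost its call without siKIF15 1, and CCL20 and IL6 lost theirs without any 1 of siKIF15 1, siKIF15 2, NC 1 and NC 2.

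Of 18 measured partners and cofactors of the 7 proteins, 1 rose and 3 fell (median -0.11), beside 9.66% and 8.33% of all genes tested. LMO2, a bridging protein that joins GATA factors in blood cells, had 53.1, 84.4 and 78.3 in siKIF15-labelled libraries and 20.9, 34.0 and 30.4 in NC libraries (log2 change 1.31, limma adjusted p = 0.0064). KMT2C, an enhancer histone methyltransferase, had 3242, 2320 and 3702 in siKIF15-labelled libraries and 4006, 4242 and 4634 in NC libraries (-0.50, adjusted p = 0.012). NCOR1 and TLE3, both corepressors, fell by 0.35 and 0.21 (adjusted p = 0.042 and 0.046). NCOR1 lost its call after the GC and length correction (-0.14, adjusted p = 0.089) and in each fit without 1 library except that without siKIF15 3. The falls numbered 0, 2 and 6 without siKIF15 1, 2 or 3 and 1, 0 and 0 without NC 1, 2 or 3, and 5 with the replicate number as a block.

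The nearest tested genes on either side of each factor did not share the changes of their neighbours in a uniform way. Beside ELF3, the genes RNPEP, TIMM17A and GPR37L1 did not pass, with log2 changes of 0.10, 0.00 and 0.84. Beside EHF, PDHX fell by 0.35 (limma adjusted p = 0.0036) and ELF5 by 0.24, and CAT and APIP did not pass. Beside HOXB13, CALCOCO2 and TTLL6 rose by 0.26 and 0.84 (adjusted p = 0.015 and 0.048), whereas PRAC1, the gene next to it, had 1810, 1703 and 1480 in siKIF15-labelled libraries and 1659, 1351 and 1471 in NC libraries (0.16, adjusted p = 0.31). C6orf106 beside SPDEF and RPN1 beside GATA2 both rose by 0.24 (adjusted p = 0.015 and 0.028). SSTR1 beside FOXA1 rose at a low level, averaging 10.2 in siKIF15-labelled libraries and 2.1 in NC libraries (adjusted p = 0.031), and the 4 neighbours of GRHL2 did not pass. PDHX kept its call in all 6 fits without 1 library, and the other calls of this group were each lost when siKIF15 1, NC 2 or NC 3 was left out.

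The genes whose centred values across the 6 libraries lay closest to those of ELF3, among 11383 with a mean of at least 100, were MAPK3, IGFBP3 and TCF19. Their root mean square differences from ELF3 were 0.019, 0.020 and 0.021 on the log2 scale. MAPK3, the ERK1 kinase gene, had 5691, 5716 and 5181 in siKIF15-labelled libraries and 4290, 4056 and 4295 in NC libraries. IGFBP3, a secreted binding protein of insulin-like growth factors, had 45106, 45727 and 41440 in siKIF15-labelled libraries, against 33584, 32591 and 33389 in NC libraries. In all 3, as in ELF3, siKIF15 3 was the lowest of its group and the groups did not overlap. The 3 were chosen for closeness to ELF3 in these same libraries, so this likeness follows from the choice.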

How the data were processed

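RNA was measured in 3 libraries labelled siKIF15 and 3 labelled NC, grouped by their titles. The tool named in the submitters' processing notes is Bowtie 0.12.2, and the builds named there are mm8 and mm9, which are of mouse, while the samples are human. A human build, the counting, its filters and the strand are not given in the sources used here. As deposited, each library has 1 signal value per symbol in 17356 lines, and no header states the unit. The sums of the deposited signal were 49.5 M to 53.2 M, which are not depths, so no counting interval was used. The plan named a count test for whole numbers; the values are not whole, so limma 3.58.1 (R 4.3.3) was fitted to log2(value + 1), with a variance trend and no covariate, after dropping genes whose mean was under 1 in both groups; this scale understates changes of low genes. Reads were not recovered. The script was tested on simulated data.

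Transcript length and GC content came from the longest GENCODE 29 basic transcript and were matched for 97.2% of lines. The correction subtracted, per library, natural splines with 5 degrees of freedom in GC content and in log length, fitted to genes with a mean of at least 100. Promoters came from RefSeq, GRCh38.p14.

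The 7 genes and all lists were chosen with earlier results of these data known; some list genes are not reported here and were left out of the lists. From each list the text names every called gene up to 5, otherwise the 4 with the smallest adjusted p, with the 2 nearest tested genes on each side of a factor and the 3 genes most like a called factor. CDH1, ESRP1, KLK3, HOXA13, GATA6, GRHL1, ZEB1, FOXA3, TP63, HOXC13, HOXB2, HOXB6 and HOXB8, and genes named for the correction, were picked after their values were seen. Genes with close copies and overlapping or antisense genes are uncertain. Same-numbered libraries did not deviate together, so numbers were not taken as pairs. Alternatives covered the pseudocount, filter, scaling, variance trend, replicate block, the correction and each library left out.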

Additional observations from a re-analysis of the deposited data

How the results depend on the processing

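ELF3 kept its direction and its call in all 17 alternatives, and KIF15 was not called in any of the 17, with log2 changes of -0.22 to -0.05 without single libraries. Without single libraries the log2 change was -0.06 to -0.02 for FOXA1, -0.14 to -0.04 for HOXB13, 0.05 to 0.12 for GATA2, 0.12 to 0.20 for GRHL2, 0.15 to 0.31 for SPDEF, 0.37 to 0.46 for ELF3 and -0.20 to -0.02 for EHF. The factors called then numbered 1 to 2 higher and 0 to 1 lower, and all genes called 767 to 2537 higher and 417 to 2540 lower; fewer samples also lower the power. The lists gave 1 to 5 higher and 0 to 1 lower for HOX relatives, 3 to 5 and 0 to 3 for ETS relatives, 0 to 2 and 0 to 4 for other lineage factors, 3 to 15 and 0 to 1 for junction genes, 3 to 4 and 1 to 7 for FOXA1 and HOXB13 targets, 3 to 5 and 0 to 1 for secretory genes, 1 to 3 higher for inflammatory genes, 1 to 3 and 0 to 6 for partners, 0 to 1 lower for epithelial repressors and 0 to 2 lower for GATA relatives.

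With the GC and length correction, HOXB13 (-0.21), FOXA1 (-0.13) and GRHL2 (0.16) passed and GATA2 turned to -0.04. It called 2 factors higher and 2 lower, and 1868 genes higher and 2989 lower. In the lists it called 4 HOX relatives and 2 other lineage factors higher, with HOXA13 and NFIA among them that were not called before, and 2 ETS relatives, 5 junction genes, 1 secretory gene, 6 partners and 1 GATA relative lower. Under quantile normalization HOXB13 passed (-0.21), so 1 factor was lower, GATA2 turned to -0.08, and 0 HOX relatives were lower. Without the variance trend 760 genes were higher and 310 lower. The lists then had 1 HOX relative, 3 ETS relatives, 2 junction genes and 2 FOXA1 and HOXB13 targets higher, and 0 HOX relatives, 0 ETS relatives, 0 other lineage factors, 0 repressors, 0 partners and 1 FOXA1 and HOXB13 target lower. With equal totals 3 HOX relatives were higher and 2 ETS relatives lower. With a pseudocount of 0.1, 0 repressors and 1 partner were lower, and with no filter 0 repressors. The cause of these moves was not tested.

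Same-numbered siKIF15 and NC libraries had correlations of 0.03, -0.14 and 0.00 between their deviations from the group means, and no siKIF15 library correlated best with its own number. With the replicate number as a block 1654 genes were higher and 1530 lower, 5 partners were lower and ELF3 was the factor called. With the replicate block and the GC and length correction together, 3054 genes were lower, HOXB13 (-0.21), FOXA1 (-0.13) and GRHL2 (0.16) passed, GATA2 turned to -0.04, 2 factors were higher and 2 lower, 4 HOX relatives and 2 other lineage factors were higher, and 2 ETS relatives, 5 junction genes, 1 secretory gene, 7 partners and 1 GATA relative were lower.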
